A study of Macaca mulatta with 30 samples.

Results

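FKBP5 and the chaperones of the glucocorticoid receptor were followed in RNA-seq of fetal rhesus macaque lung and hippocampus after a single maternal injection of betamethasone. The genes were chosen by symbol: FKBP5, FKBP4, HSP90AA1, HSP90AB1, PTGES3, STIP1 and BAG1. Of these 7 genes, 6 were matched to an Ensembl identifier in both count tables, and HSP90AA1 was not analysed here. They stand among 42060 identifiers in either tissue. All 6 genes passed the filter on low counts, as did 17644 identifiers in lung and 17390 in hippocampus.

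All animals were wild type. Lung came from 5 groups of 3 fetuses: saline controls, the clinical drug (Celestone, betamethasone phosphate plus acetate, 0.25 mg/kg) 4 h or 5 days before delivery, and betamethasone acetate alone (Beta-Ac, 0.125 mg/kg) 6 h or 5 days before delivery. The lung labels give no time for the saline animals, which the hippocampus labels place at 5 days. The 4 h and 6 h groups thus had no control labelled with their own time. Drug and time after injection cannot be told apart in their comparisons with saline. Lung labels give gestational days 124 to 130. Fetuses that also gave hippocampus have 131 to 136 days in the hippocampus labels, so the labels of these fetuses conflict. Hippocampus came from 3 groups of 5 fetuses, all 5 days after treatment, at 130 to 136 days of gestation. These groups follow the library names CTL (controls), BAC and CEL. The treatment and dose fields of the hippocampus labels give the BAC libraries the clinical drug and the CEL libraries the acetate. The lung labels of the same animals give the reverse, so a direction between BAC and CEL depends on which label is right. RNA was from whole tissue, in which fewer cells of a type and less RNA per cell cannot be told apart. Lung libraries held 14.1 to 45.0 M reads on genes and hippocampus libraries 18.3 to 29.3 M. Summed markers of lung epithelium were 6902 to 17919 CPM (counts per 1 M reads) in lung and 4.96 to 10.3 CPM in hippocampus. Summed hippocampal markers were 719 to 1242 CPM in hippocampus and 1.94 to 7.08 CPM in lung, although ZBTB20, one of them, was only 0.371 to 2.21 CPM in hippocampus. The control hippocampus of 1 animal stood apart, with choroid plexus markers at 663 CPM against 6.51 to 28.9 CPM in the other libraries. Its summed markers of thalamus and striatum were also the highest, at 173 CPM. BAC animal 16-130 followed at 144 CPM, and the remaining hippocampus libraries had 39.6 to 94.3 CPM. Among the BAC libraries, 16-130 was highest for FKBP5, HSP90AB1 and PTGES3 and lowest for STIP1 and BAG1. The part of neighbouring tissue in these levels was not tested.

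Without hormone, the glucocorticoid receptor is held in the cytoplasm by a cycle of chaperones. HSP70 and HSP90, joined by the scaffold STIP1 (HOP), fold the hormone-binding domain, and the p23 protein PTGES3 stabilizes the mature complex. FKBP5 (FKBP51) and FKBP4 (FKBP52) compete for the same site on HSP90: FKBP5 lowers hormone affinity and slows nuclear entry, whereas FKBP4 links the complex to dynein. FKBP5 is itself a direct target gene of the receptor, which closes a short negative feedback loop, and its RNA is widely used as a readout of glucocorticoid exposure.

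FKBP5 (ENSMMUG00000011520) was low in saline-treated lung and high shortly after either drug. Its level, as CPM after TMM normalization, was 5.83, 5.27 and 5.72 in the 3 saline libraries. Lung taken 4 h after the clinical drug had 219, 120 and 179 CPM. Every treated library lay far above every control, and single animals stood 21.4 to 39.0 times over the saline mean. The log2 fold change was 4.94 ± 0.52 (SE from the fit of all lung libraries, n = 3 per group). This is a fold of 30.8 with a 95% interval of 14.3 to 66.4 (edgeR, q = 7.38e-05). Markers of other cells moved with this group: summed lymphocyte and myeloid markers (5 of 5 matched, MARCO near 0) were 15.1 to 31.4 CPM against 42.3 to 57.7 CPM in saline, and summed lung epithelial markers (5 of 6 matched) were 11995 to 17919 CPM against 6902 to 10286 CPM. Their part in the FKBP5 level was not tested. FKBP5 ranked 12th of all tested genes by log2 fold change. Calls needed a change of 1.5-fold or more, p below 0.05 and a multiple-testing adjusted p below 0.1 (Storey's q in lung), and 7.4% of all tested genes were called in this comparison. Only FKBP5 was called among the 6 genes. It was also the 1 gene of the 6 whose treated and saline libraries did not overlap, which held for 21.3% of all tested genes.

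At 6 h after Beta-Ac the FKBP5 level was 18.9, 31.2 and 106 CPM in animals 16-123, 16-131 and 17-254. All 3 libraries were above every saline library, but they spanned 5.60-fold among themselves, against 1.82-fold at 4 h after the clinical drug and 1.11-fold in saline. The log2 fold change over saline was 3.21 ± 0.49 (SE from the same fit, n = 3 per group; q = 0.0166). The highest library, 17-254, also had the highest summed blood markers in lung, at 202 CPM against 17.9 to 86.7 CPM in the other 14, and the part of blood in its FKBP5 level was not tested. Without 17-254 the log2 fold change was 2.16 and the gene was still called (q = 0.00514). The call was lost without saline animal 15-92 (log2 fold change 3.21, q = 0.102) and in a fit of these groups alone (3.19, q = 0.191). In this comparison 0.442% of all tested genes (78) were called, and 1 of the 6 genes, FKBP5. That background rested on single animals: with 1 left out it ran from 9 genes (without 15-92) to 211 (without 16-131), and it was 12 without 17-254, 26 without 15-101 and 48 without 16-113. Libraries did not overlap for 2 of the 6, FKBP5 and HSP90AB1, and for 16.3% of all tested genes.

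**Figure D1:**
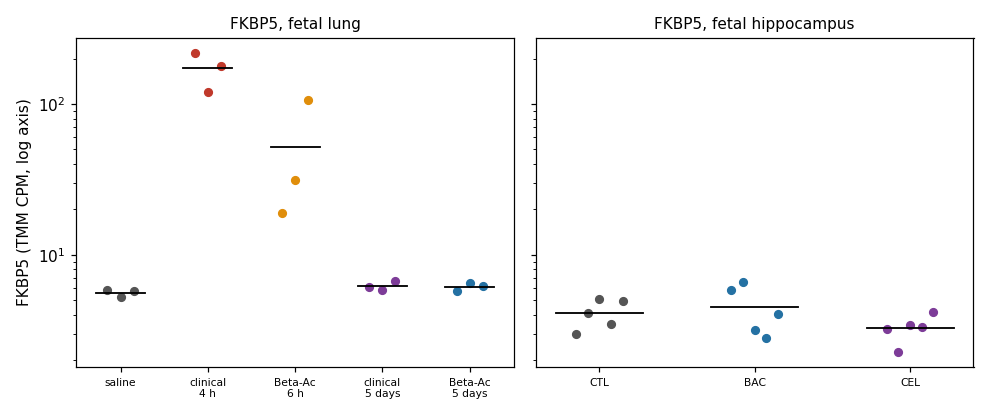
FKBP5 in each library, as TMM CPM on a log axis, for the 5 lung groups (left, n = 3 each) and the 3 hippocampus groups (right, n = 5 each). Points are animals and lines are group means. The 4 h and 6 h lung libraries lie between 18.9 and 219 CPM, and all other lung libraries between 5.27 and 6.68 CPM.

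By 5 days FKBP5 had returned to near its control level in lung. It was 6.08, 5.80 and 6.68 CPM after the clinical drug and 5.78, 6.48 and 6.19 CPM after Beta-Ac. Both groups overlapped the saline libraries. The log2 fold change over saline was 0.14 ± 0.49 for the clinical drug, with an interval on the fold of 0.532 to 2.28. For Beta-Ac it was 0.13 ± 0.49, with an interval of 0.530 to 2.27. The fit draws 1 spread for the gene from all 5 lung groups, so both intervals also carry the early groups. The SD of log2 CPM was 1.28 at 6 h after Beta-Ac and 0.44 at 4 h after the clinical drug. It was 0.08 in saline, 0.10 at 5 days after the clinical drug and 0.08 at 5 days after Beta-Ac. The smallest change that could be detected was not tested. Of all tested genes 0% were called at 5 days after the clinical drug and 0.00567% after Beta-Ac, and 0 of the 6 genes in either.

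The fall from the early to the late time was tested directly. From 5 days to 4 h after the clinical drug the log2 difference was 4.80 ± 0.51 (q = 5.50e-05), in a comparison that called 10.4% of all tested genes. From 5 days to 6 h after Beta-Ac it was 3.08 ± 0.48 (q = 0.0278), where 0.261% (46 genes) were called, or 5 to 98 with 1 animal left out (lowest without 16-136, highest without 16-131). FKBP5 was the only one of the 6 genes called in either comparison. For the clinical drug, libraries did not overlap for 4 of the 6, FKBP5, HSP90AB1, STIP1 and BAG1, and for 29.1% of all tested genes. For Beta-Ac this held for 1 of the 6, FKBP5, and for 13% of all tested genes. The call for Beta-Ac was lost when any one of the animals 16-128, 16-130 or 16-136 was left out, with log2 differences of 3.01, 3.12 and 3.05, and in a fit of these groups alone (3.06, q = 0.249). In order of level, the 4 h group stood above the 6 h group, and the 5-day and saline groups, which overlapped, came last.

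FKBP5 was also higher 4 h after the clinical drug than 6 h after Beta-Ac, by 1.73 ± 0.44 on the log2 scale (q = 0.0268), where 6.74% of all tested genes were called. The lowest clinical library, at 120 CPM, was above the highest Beta-Ac library, at 106 CPM. Drug, dose and time all differ between these groups and cannot be told apart. The animal numbers differ as well: 15-81, 15-85 and 15-97 in the clinical group, and 16-123, 16-131 and 17-254 in the Beta-Ac group. No sequencing run was available for lung, so a batch cannot be told apart either. Without 17-254 the log2 difference was 2.78, and in a fit of these groups alone it was 1.75 and not called (q = 0.156). Between the drugs at 5 days it was 0.01 ± 0.47, with an interval on the fold of 0.498 to 2.03, in a comparison that called 0% of all tested genes. All comparisons with saline share the same 3 controls.

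HSP90AB1 (ENSMMUG00000022685), the constitutive cytosolic HSP90, differed between the drugs at the early times. Clinical-drug lung at 4 h had 24.7, 28.9 and 27.1 CPM and Beta-Ac lung at 6 h had 38.6, 40.0 and 45.4 CPM, with 27.5, 29.4 and 35.2 CPM in saline. The early groups did not overlap, as was also the case for FKBP5, STIP1 and 22.4% of all tested genes. The saline libraries lay between the early groups or within the range of the clinical drug. The log2 difference between the early groups was -0.62 ± 0.16 (q = 0.0267). HSP90AB1 and FKBP5 were the 2 called genes of the 6, beside 6.74% of all tested genes. Against saline, neither drug was called: the log2 fold change was -0.20 ± 0.16 for the clinical drug (q = 0.387) and 0.43 ± 0.16 for Beta-Ac (q = 0.272). The size of the difference was close to the 1.5-fold limit. It was -0.57 without clinical animal 15-81 and -0.55 without Beta-Ac animal 17-254, and the gene was then not called. HSP90AB1 has near-identical copies in the genome, so that its reads, like those of PTGES3, may be shared with them.

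None of the other 4 genes was called in any lung comparison. PTGES3 (ENSMMUG00000013766), which encodes p23, was 300 to 364 CPM in saline, 339 to 350 CPM at 4 h after the clinical drug and 243 to 340 CPM at 6 h after Beta-Ac, where 17-254 was the lowest of all lung libraries. STIP1 (ENSMMUG00000012953), the HSP70-HSP90 scaffold, ranged from 98.5 to 144 CPM over all lung libraries. BAG1 (ENSMMUG00000020148), a nucleotide exchange factor of HSP70 that binds the receptor, ranged from 24.0 to 31.6 CPM. FKBP4 (ENSMMUG00000007405) was 73.5, 74.6 and 91.3 CPM in saline and 77.5, 82.3 and 90.2 CPM at 4 h after the clinical drug.

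In that early comparison with saline, the 5 genes other than FKBP5 had log2 fold changes of -0.20 to 0.13, and their intervals on the fold together ran from 0.691 to 1.30. A change in any of them of the size seen in FKBP5 therefore lay outside its interval. At 5 days after the clinical drug FKBP4 was 100, 121 and 89.1 CPM. Its log2 fold change of 0.37 ± 0.13 was not called (q = 0.931), and its groups overlapped.

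**Figure D2:**
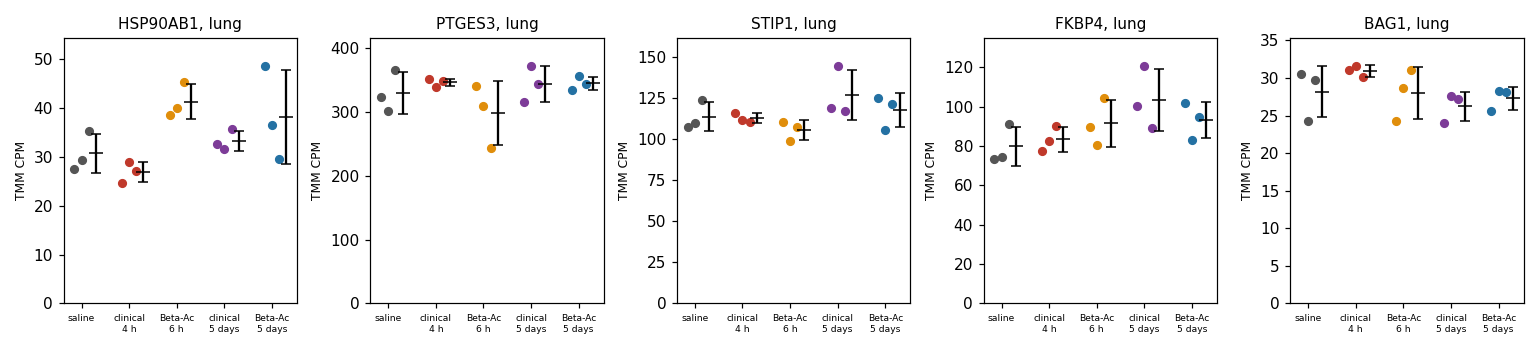
HSP90AB1, PTGES3, STIP1, FKBP4 and BAG1 in each lung library, as TMM CPM on linear axes from 0. Points are animals (n = 3 per group) and bars are the mean ± SD. HSP90AB1 lies at 24.7 to 28.9 CPM at 4 h after the clinical drug and at 38.6 to 45.4 CPM at 6 h after Beta-Ac.

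Because FKBP5 and FKBP4 compete for HSP90, their reads were set against each other within each library. This ratio is not corrected for gene length, so only its differences between libraries can be read. In saline lung there were 7.94, 7.06 and 6.27 FKBP5 reads per 100 FKBP4 reads. At 4 h after the clinical drug there were 282, 146 and 199, and at 6 h after Beta-Ac 21.1, 38.7 and 102. At 5 days the ratio was 4.81 to 7.78 over both drugs. The ratio was thus highest in the 3 libraries at 4 h, followed by the 3 libraries at 6 h with 17-254 first, and lower in every other lung library.

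In hippocampus none of the 6 genes was called in any comparison. FKBP5 was 3.0, 4.12, 5.09, 3.49 and 4.96 CPM in CTL. It was 5.85, 6.55, 3.15, 2.82 and 4.04 CPM in BAC and 3.24, 2.26, 3.40, 3.32 and 4.18 CPM in CEL. The 3 groups overlapped. The log2 fold change against CTL was 0.12 ± 0.25 for BAC (interval on the fold 0.753 to 1.56) and -0.33 ± 0.25 for CEL (0.549 to 1.15; adjusted p = 0.388 by Benjamini-Hochberg). Over all tested genes, 7.86% were called for CEL against CTL, 0% for BAC against CTL and 0% for CEL against BAC. At an unadjusted p under 0.05 edgeR gave 2133 genes for BAC against CTL and 2346 for CEL against BAC. Genes called at the full thresholds numbered 0 for BAC against CTL in the main fit, 184 without animal 16-128 and 157 by DESeq2. For CEL against BAC they numbered 0 in the main fit and 191 by DESeq2. For CEL against CTL they numbered 1366 in the main fit and 958 with sequencing run as a block. In the 2 runs that held all groups, 596 genes were called for CEL against CTL.

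HSP90AB1, PTGES3 and BAG1 differed between CEL and CTL by less than the 1.5-fold limit. As in lung, reads of HSP90AB1 and PTGES3 may be shared with near-identical copies. HSP90AB1 was 26.0, 30.5, 25.4, 27.6 and 23.3 CPM in CTL and 19.8, 23.5, 16.2, 16.8 and 18.8 CPM in CEL. Its log2 fold change was -0.48 ± 0.14 (adjusted p = 0.0353). PTGES3 was higher, at 9.96 to 14.7 CPM in CEL against 7.82 to 10.9 CPM in CTL, by 0.45 ± 0.15 (adjusted p = 0.0566). BAG1 was 10.3 to 13.4 CPM in CEL and 13.2 to 19.1 CPM in CTL, a log2 fold change of -0.40 ± 0.15 (adjusted p = 0.0799). None of the 6 genes had groups that did not overlap, against 15.1% of all tested genes. With no limit on the fold change these 3 genes of 6 were called, beside 21.9% of all tested genes.

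Sequencing run was not balanced over the groups. The 15 libraries came from 4 runs, of which 2 held all 3 groups, and 3 of the 5 CTL libraries were in the other runs. With run as a block the log2 fold change was -0.36 for HSP90AB1 (adjusted p = 0.249), 0.25 for PTGES3 (adjusted p = 0.331) and -0.16 for BAG1 (adjusted p = 0.573). Without the control library high in choroid plexus markers they were -0.53, 0.47 and -0.45. FKBP5 moved the other way with run as a block for CEL against CTL, from -0.33 to -0.62 (adjusted p = 0.247). For BAC against CTL its sign changed, from 0.12 to -0.19. FKBP5 was called in neither. FKBP4 and STIP1 were 80.1 to 124 CPM and 71.2 to 82.8 CPM in CTL, and 86.2 to 116 CPM and 60.9 to 79.7 CPM in CEL. HSP90AB1 also was lower in CEL than in BAC, by a log2 difference of -0.47 ± 0.14 that was not called (adjusted p = 0.226).

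**Figure D3:**
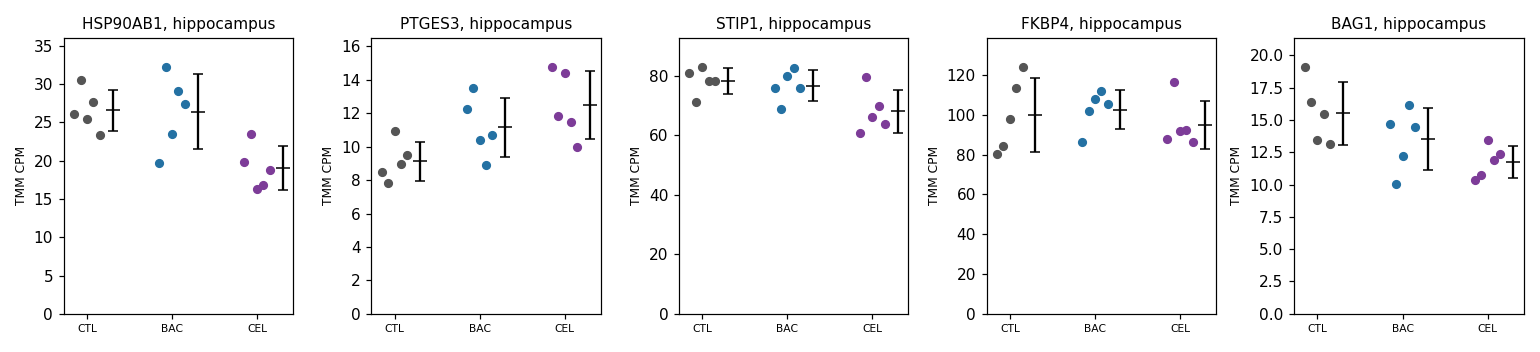
HSP90AB1, PTGES3, STIP1, FKBP4 and BAG1 in each hippocampus library, as TMM CPM on linear axes from 0. Points are animals (n = 5 per group) and bars are the mean ± SD. HSP90AB1 is 16.2 to 23.5 CPM in CEL and 23.3 to 30.5 CPM in CTL.

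**Figure D4:**
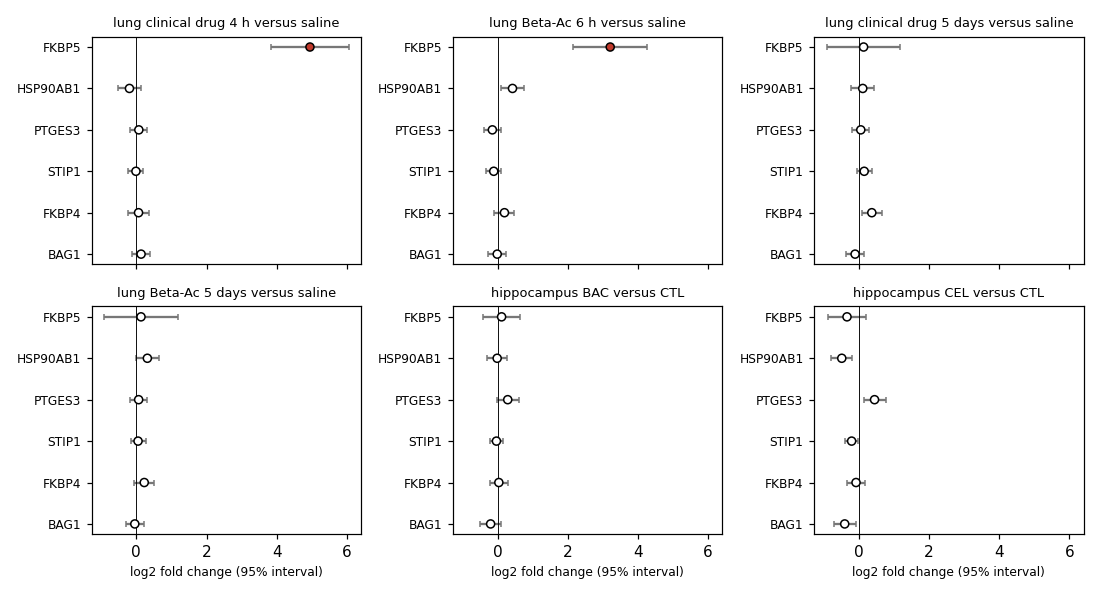
Log2 fold changes against saline or CTL for the 6 genes in 6 comparisons, with 95% intervals. Filled points were called. FKBP5 lies at 4.94 and 3.21 at the early lung times, and no other gene is called in these comparisons.

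The same animals gave both tissues in 9 cases, but the count tables rest on different annotations, with 20572 identifiers in common. PTGES3, under the same identifier in both, was 300 to 364 CPM in saline lung and 7.82 to 10.9 CPM in control hippocampus. The part of annotation in this gap was not tested. Levels between tissues are therefore given side by side and were not tested.

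Few genes of the wider chaperone network were called in lung. From a list of HSP90 paralogs, HSP70 and J-domain proteins, further co-chaperones, BAG proteins, immunophilins, heat shock proteins and receptor clients of HSP90, 67 genes were tested. In the 4 h clinical-drug group 1 rose and 1 fell against saline, 2.99% of the list, beside 7.4% of all tested genes. The riser was BAG3, a co-chaperone of HSP70 in selective autophagy, at 90.8 to 110 CPM against 60.1 to 67.2 CPM in saline (log2 fold change 0.62 ± 0.16, q = 0.0274). NR3C2, the mineralocorticoid receptor, was 7.78, 4.19 and 5.82 CPM against 8.86, 10.5 and 12.7 CPM, a log2 fold change of -0.84 ± 0.23 (q = 0.0309). NR3C1, the glucocorticoid receptor itself, was 70.6 ± 10.8 CPM against 93.9 ± 21.4 CPM (SD, n = 3) and was not called, at -0.41 ± 0.15 (q = 0.0940).

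At 6 h after Beta-Ac and at 5 days after either drug 0 of the 67 were called, where 0.442%, 0% and 0.00567% of all tested genes were. NR3C2 was lower at 4 h after the clinical drug than at 6 h after Beta-Ac, by a log2 difference of -1.01 ± 0.23 (q = 0.0176). Between 4 h and 5 days after the clinical drug 3 of the 67 were called, 4.48% beside 10.4% of all tested genes, and all were lower at 4 h. NR3C2 was at -1.12 ± 0.23 (q = 0.00478), together with the small heat shock protein HSPB8 (-0.68 ± 0.08, q = 0.000114) and the endoplasmic reticulum immunophilin FKBP14 (-0.86 ± 0.29, q = 0.05).

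In hippocampus 69 identifiers of the list were tested, and 7 of them, 10.1%, were called for CEL against CTL, near the 7.86% of all tested genes. The median log2 fold change of the list was -0.09. The chaperonin HSPE1 rose by 0.81 ± 0.23, while the peptidyl-prolyl isomerase PPIF fell by 0.66 ± 0.23 on the log2 scale. RUVBL2, an ATPase of the R2TP co-chaperone, was at -0.80 ± 0.24, TOMM34 at -0.60 ± 0.14 and BAG6 at -0.59 ± 0.11. The mitochondrial HSP90 TRAP1, at -0.59 ± 0.16, was named here after its value was seen. PPIA, cyclophilin A, rose by 0.61 ± 0.18. PPIA and HSPE1 have many near-identical copies, and their counts are uncertain. HSPE1 and PPIF overlapped between the groups. With sequencing run as a block, which was tried after seeing the data, all 7 kept their sign and 4 were called, HSPE1, RUVBL2, TOMM34 and PPIF. In the 2 runs that held all groups 2 were called, HSPE1 and TOMM34.

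The lung genes whose log2 CPM was most like that of FKBP5 over the 15 libraries were LAMB1 (Pearson r = 0.99), ENSMMUG00000008207 (0.99), NFKBIA (0.99), MMP19 (0.98) and STIM1 (0.98). These correlations describe libraries that share their treatment groups, and they carry no test. NFKBIA, the inhibitor of NF-kappaB, was 413, 360 and 413 CPM at 4 h after the clinical drug and 172, 224 and 342 CPM at 6 h after Beta-Ac, against 138, 121 and 113 CPM in saline. LAMB1, a laminin chain, was 1146, 1187 and 1856 CPM at 6 h after Beta-Ac and 692 to 730 CPM in saline. In each of these 5 genes 17-254 was the highest of the Beta-Ac libraries at 6 h, as for FKBP5. The genes were chosen for likeness to FKBP5 over these same libraries, so this follows in part from the choice. Of the other 5 chaperone genes, BAG1 had an r of 0.60 with FKBP5 and the rest from -0.36 to -0.16. In hippocampus SLC43A3 (0.79), HBE1 (0.78), ERAP1 (0.77) and GLDC (0.77) were among the most similar genes.

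**Figure D5:**
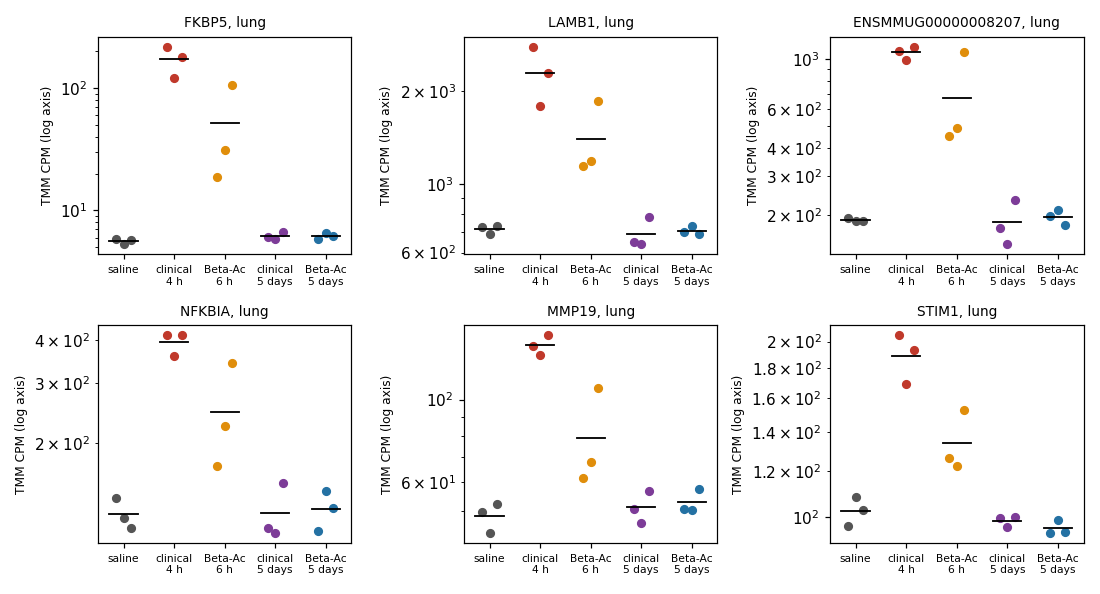
FKBP5 and the 5 genes most like it in lung, as TMM CPM on log axes, in each of the 15 libraries. Points are animals and lines are group means. In all 6 panels the groups at 4 h and 6 h lie above saline and both 5-day groups, which follows in part from the choice by likeness.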

How the data were processed

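The authors aligned paired-end reads to the rhesus build MMUL1.0 and counted them per Ensembl gene. The labels name Bowtie 1.2.1.1 and featureCounts 1.5.1 for lung, and Bowtie2, featureCounts and edgeR, with poly(A) selection, for hippocampus. The deposited values are raw counts, without a filter or normalization. Here identifiers reaching 7 reads in 3 or more lung libraries, or in 5 or more hippocampus libraries, were tested with edgeR 4.0.16 in R 4.3.3: TMM, the quasi-likelihood F-test and 1 fit per tissue. P-values were adjusted over all tested genes, by Storey's q in lung and Benjamini-Hochberg in hippocampus. Log2 CPM for correlations used a prior count of 2. The spread between animals sets the precision. Each SE and interval of a log2 fold change was matched to the F-test in the fit of its tissue. They thus rest on a spread drawn from all groups of the tissue, not only from the groups compared. The procedure was tested on simulated counts. Genes beyond the chosen ones were named by rule: the list genes called with the largest change, at most 6 per comparison, NR3C1 and NR3C2, and the 5 genes most like FKBP5 per tissue. Of these, 1 hippocampus gene is not reported here. The genes and lists were chosen with earlier results of these data known. Alternatives were RLE, other filters, the other adjustment, no fold limit, only the compared groups, DESeq2 1.42.0, sequencing run, and each animal left out. Sequences and genome positions were not used.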

Additional observations from a re-analysis of the deposited data

Results flagged for a closer look

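FKBP5 differed in lung between 4 h and 5 days after the clinical drug by 4.80 on the log2 scale, between 6 h and 5 days after Beta-Ac by 3.08, and between the drugs at the early times by 1.73. HSP90AB1 differed between the drugs at the early times by -0.62. These differences were tested by edgeR within the fit of all lung libraries.

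FKBP4 in the CEL hippocampus of animal 16-120 stood apart from its group at 116 CPM, by the gap to its nearest neighbour relative to the range of the group. It was 1 of 18 groups of 5 looked at, and chance gives about 1 in 20.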

How the results depend on the processing

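Over 66 pairs of gene and comparison, 954 of 966 alternative values stayed on the same side of the thresholds, 9 lost a call, 3 gained one and 0 called values reversed. Most of these pairs were not called in the main fit, so the pooled figure says little about the calls themselves. The call of FKBP5 at 4 h after the clinical drug against saline held in 13 of 13 alternatives, with log2 fold changes of 4.72 to 5.13. Against 5 days it held in 13 of 13. The FKBP5 call at 6 h after Beta-Ac held in 11 of 13 against saline and 9 of 13 against 5 days. Between the drugs at the early times, FKBP5 held in 12 of 13 and HSP90AB1 in 11 of 13. Fitted with only the 2 groups compared, the number of the 6 genes called was 0 for Beta-Ac 6 h against saline, 1 for the early drug comparison and 0 for Beta-Ac 6 h against 5 days, beside 19, 314 and 9 of all tested genes. With no fold limit it was 3 of the 6 for CEL against CTL, beside 3816 of all tested genes. With 1 animal left out, the number of the 6 ranged from 0 to 1 for Beta-Ac 6 h against saline (0 without saline animal 15-92, FKBP5 log2 fold change 3.21), from 1 to 2 for the early drug comparison and from 0 to 1 for Beta-Ac 6 h against 5 days. Over all tested genes the counts ran from 9 to 211, from 667 (without 15-85) to 1971 (without 15-81) and from 5 to 98. The causes were not tested. With 3 animals a group, small changes of the chaperones in lung could be missed, and the smallest change that could be detected was not tested. The ratio of HSP90AA1 to HSP90AB1 reads was not run.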
